A study of Mus musculus with 6 samples.

Results

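The 4 myogenic regulatory factor genes, Myod1, Myf5, Myf6 and Myog, were placed in the mouse genome (NCBI Build 37, mm9) by their GENCODE gene models, as 4 of the 23061 genes with a usable model. Sox6 and RNA polymerase II (Pol II) binding at these genes was read from ChIP-seq of wild type C57BL/6 primary myotubes. The cells were myoblasts from fetal (E18.5) limb muscle, at passage 17 per the labels, kept for 48 h in a low-serum medium in which myoblasts fuse into myotubes. The 6 libraries formed 3 groups of 2: Sox6 immunoprecipitation with a rabbit polyclonal antibody, Pol II immunoprecipitation with the 4H8 antibody against the repeated tail of its largest subunit, and input DNA with no antibody. All groups came from the same kind of culture, so each comparison was between an immunoprecipitation and input. The study describes the replicates of each antibody as independent ChIP experiments, and whether they came from separate cultures is not stated. The limma p-values rest on the spread between libraries, with the variance of each window drawn toward a trend over all windows of its kind. They do not measure the spread of a gene's own libraries alone. At starts and in flanking windows the trend dominates, and a gene's own spread hardly enters the p-value. Starts, bodies and flanking windows were fitted separately, so their p-values are not comparable across these.

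Myod1, Myf5, Myf6 and Myog encode the basic helix-loop-helix transcription factors MyoD, Myf5, MRF4 and myogenin. They bind E-boxes as dimers with E proteins and switch on muscle genes. Myf5 and MyoD commit cells to the muscle lineage, myogenin drives fusion and terminal differentiation, and MRF4 acts both in the early embryo and in mature fibers. Sox6 is a transcription factor of the SoxD group that represses slow fiber genes in fetal muscle.

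The Sox6 libraries held 2985437 and 1468604 reads, the Pol II libraries 1538757 and 2762155, and the inputs 21973495 and 24249850. The cultures were checked against cell type markers by Pol II. Over gene bodies 8 of 8 myotube markers were higher than input and 0 lower, where 39% and 24.4% of all genes were. Cycling cell markers gave 1 higher and 2 lower of 6, fibroblasts 0 and 4 of 6, and endothelium 0 and 4 of 4. Blood cells gave 1 and 1 of 2, neurons and glia 1 and 1 of 4, and adipocytes 0 and 1 of 3. Scaled to the median reads per 10 kb bin, cycling cells, fibroblasts and endothelium gave 4, 2 and 2 higher and 0 lower. Under that scaling 65.2% of all gene bodies were higher and 1.35% lower. At gene starts all 8 of 8 myotube markers were higher than input, where 40.8% of all genes were, against 4 of 6 markers of cycling cells, 0 of 6 of fibroblasts, 0 of 4 of endothelium, 1 of 4 of blood cells (Cd68), 2 of 4 of neurons and glia and 0 of 3 of adipocytes. The median log2 ratio was 5.47 for the myotube markers, 1.10 for cycling cells and 0.53 for fibroblasts, where the median over all genes was 0.76. The myotube count was 8 whichever library was left out and under scaling to the median reads per 10 kb bin, while the cycling count fell to 1 without input replicate 1 or 2 and rose to 6 under that scaling, and the fibroblast count rose to 4 under it and without Pol II replicate 2. The share of all genes called moved too, to 33.4% and 37% without input replicates 1 and 2, 61.5% under that scaling and 50.8% without Pol II replicate 2.

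Myod1 lies at chr7:53631844-53634462 on the plus strand and Myog at chr1:136186581-136189124 on the plus strand. Myf5 (chr10:106919964-106923190) and Myf6 (chr10:106929916-106931785) are neighbors on the minus strand, with 6725 bp between the end of Myf6 and the start of Myf5. Each gene has 3 exons, and their models run over 2619, 2544, 3227 and 1870 bp in the order Myod1, Myog, Myf5 and Myf6. The 250 bases before each start site are shown because these proximal promoters are where several of the factors known to control the genes bind. They are on the strand of the gene, 5′ to 3′, and capitals mark matches on either strand to the letters searched: Sox ACAAAG or ACAATG, E-box CAGCTG or CAGGTG, Runx CCACA, Tead GGAATG, MEF3 TCAGGTTTC and the Mef2 consensus. These motifs do not contain one another, but neighboring matches can overlap, as one Runx and one Sox match do in a Sox6 peak shown further on.
Myod1 promoter, chr7:53631594-53631843, plus strand: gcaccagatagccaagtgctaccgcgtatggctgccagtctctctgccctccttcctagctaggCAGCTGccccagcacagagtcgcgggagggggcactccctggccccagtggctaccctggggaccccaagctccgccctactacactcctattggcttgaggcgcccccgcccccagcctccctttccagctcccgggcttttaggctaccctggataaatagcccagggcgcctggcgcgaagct
Myog promoter, chr1:136186331-136186580, plus strand: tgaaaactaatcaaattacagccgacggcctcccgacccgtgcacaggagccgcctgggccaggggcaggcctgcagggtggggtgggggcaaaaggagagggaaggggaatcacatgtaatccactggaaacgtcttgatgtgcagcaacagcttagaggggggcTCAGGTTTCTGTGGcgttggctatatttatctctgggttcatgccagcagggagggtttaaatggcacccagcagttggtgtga
Myf5 promoter, chr10:106923191-106923440, minus strand: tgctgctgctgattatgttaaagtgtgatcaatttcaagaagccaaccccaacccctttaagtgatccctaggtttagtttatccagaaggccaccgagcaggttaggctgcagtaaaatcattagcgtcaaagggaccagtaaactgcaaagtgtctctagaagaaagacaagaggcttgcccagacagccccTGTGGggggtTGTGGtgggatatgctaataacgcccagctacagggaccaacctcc
Myf6 promoter, chr10:106931786-106932035, minus strand: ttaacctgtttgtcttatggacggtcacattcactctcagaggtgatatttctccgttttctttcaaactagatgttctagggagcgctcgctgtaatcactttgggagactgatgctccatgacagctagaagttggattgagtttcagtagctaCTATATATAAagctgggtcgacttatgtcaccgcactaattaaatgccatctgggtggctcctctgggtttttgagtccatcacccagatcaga

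Counting from 1 at the 5′ end, the Myog promoter held a MEF3 match at positions 167 to 175, a motif of muscle gene promoters, which 0.447% of all 23061 promoters of this length held. A Runx match adjoined it, at positions 176 to 180, a motif held by 46.8% of promoters. The Myf6 promoter held a Mef2 match at positions 157 to 166, as did 2.84% of promoters. The Myod1 promoter held an E-box at positions 65 to 70, a motif of 26.8% of promoters, and the Myf5 promoter held only Runx matches, at positions 195 to 199 and 205 to 209. The Sox letters were in 0 of the 4 promoters and in 22.6% of all promoters. The promoters of Myod1 and Myog were richer in G and C (65.6% and 56.4%) than those of Myf5 and Myf6 (48.8% and 44.0%).

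Pol II was high at Myod1 and Myog and much lower, though above input and above most genes, at Myf5 and Myf6. Levels are given as reads per kb of the window per 1e6 reads of the library (RPKM), with reads counted by their 5′ end. Over the Myog gene, the 2 Pol II libraries gave 53.6 and 59.1 RPKM and the inputs 0.823 and 0.567. The Pol II to input ratio there was 6.35 ± 0.20 on the log2 scale (SE, limma on 2 + 2 libraries, adjusted p = 2.33e-08), 81.5-fold, and ranked 14 among 21011 genes. Over Myod1, Pol II gave 33.0 and 33.7 RPKM and input 0.539 and 0.677, a log2 ratio of 5.77 ± 0.20 (adjusted p = 3.22e-08) that ranked 29. For both genes every Pol II library lay far above every input library, and the replicates were close to each other. Actb, the cytoplasmic actin gene taken as a reference for strong Pol II binding, gave 26.4 and 35.8 RPKM over its body. Myog thus stood at 203% and 165% of Actb in replicates 1 and 2, and Myod1 at 125% and 94.2%.

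Myf5, the gene for the earliest of the factors in the embryo, gave 6.24 and 4.26 RPKM of Pol II over its body against 0.987 and 1.01 of input. Its log2 ratio was 2.38 ± 0.27 (limma, adjusted p = 4.65e-05), a 5.21-fold difference that ranked 1459 among 21011 genes. Myf6, which encodes MRF4, gave 3.48 and 3.68 RPKM against 0.633 and 0.772, a log2 ratio of 2.39 ± 0.37 (adjusted p = 0.000384) that ranked 1454. Both ratios stood above those of 93.1% of genes. No Pol II library overlapped an input library at either gene, although Myf6 rested on only 10 and 19 Pol II reads. All 4 genes passed the test at 0.05 after Benjamini-Hochberg adjustment, where 39% of genes did. Over all genes, 8184 bodies were higher and 5119 lower than input. When libraries were scaled to their median reads per 10 kb bin in place of their totals, the median log2 ratio of all bodies rose from 0.17 to 1.58 and the split became 13690 higher and 284 lower. The 4 ratios stood above the median of all genes under both scalings.

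**Figure D1:**
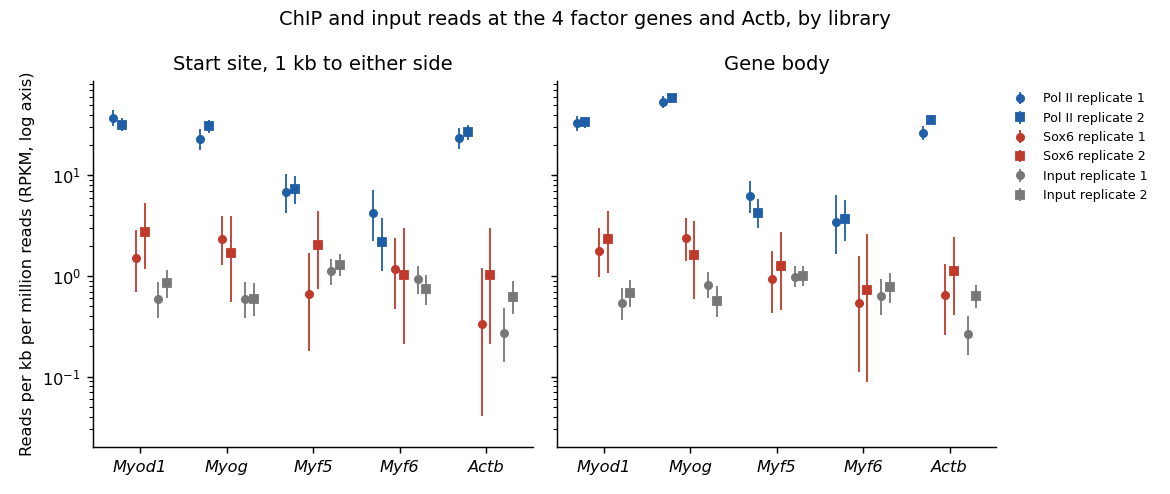
RPKM (log axis) at the 4 genes and Actb, within 1 kb of the start site (left) and over the gene body (right), with a point for each library (circles replicate 1, squares replicate 2) and exact Poisson 95% intervals of its reads, which cover counting error only. In gene bodies the Pol II points of Myod1 and Myog lie between 33.0 and 59.1 RPKM and those of Myf5 and Myf6 between 3.48 and 6.24.

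In gene bodies the Pol II level was highest at Myog, then Myod1, with Myf5 and Myf6 below both. The 95% counting interval of Myog (46.6 to 61.4 RPKM in replicate 1, 53.5 to 65.0 in replicate 2) did not overlap that of Myod1 (27.6 to 39.1 and 29.6 to 38.2). Myod1 in turn did not overlap Myf5 (4.24 to 8.86 and 3.02 to 5.85). Myf5 and Myf6 (1.67 to 6.39 and 2.21 to 5.74) overlapped in both replicates and could not be placed in order. At the start sites the first positions were less clear, with 37.3 and 31.8 RPKM at Myod1 and 23.1 and 30.6 at Myog, whose intervals overlapped in replicate 2. At the starts the log2 ratios to input were 5.59 ± 0.22 for Myod1 (limma, adjusted p = 4.54e-136) and 5.46 ± 0.24 for Myog (adjusted p = 3.29e-114), ranks 26 and 38 of 21852 genes. Myf5 followed with 2.56 ± 0.26 (adjusted p = 4.8e-21, rank 2673) and Myf6 with 1.90 ± 0.34 (adjusted p = 9.52e-08, rank 5511). Thus 4 of 4 starts were called, where 40.8% of all genes were.

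The deposited Pol II peaks gave the same contrast. In each replicate 1 peak covered Myod1 (6601 and 4481 bp) and 1 ran from near the start of Myog past its end. At Myf5 the peaks were 2 short intervals per replicate that held 0 and 10 reads in all, and no Pol II peak overlapped Myf6 in either replicate. A level computed only from reads in called peaks was therefore 0 for Myf6 in both replicates, while 10 and 19 Pol II reads lay in the gene.

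Pol II extended beyond the ends of Myod1 and Myog. In bins of 1 kb, a run in which each replicate held at least 4 times the input of its number (0.5 reads added to each count) reached from 7 kb before to 5 kb past the Myod1 start. The run of Myog began 1 kb before the start and ended 12 kb past it (36 kb past it against the input of the other number), which takes in the end of Ppfia4, the gene of a liprin, which lies on the opposite strand and ends 4.24 kb past the end of Myog. Ppfia4 itself had Pol II at its start (log2 ratio 4.53 ± 0.26, limma, adjusted p = 1.32e-66), so the reads beyond that point cannot be given to one gene. At Myog the highest 1 kb bin lay past the gene end in both replicates, 3 to 4 kb from the start, with 72.1 and 73.9 RPKM. At Myod1 the same bin held 46.8 and 42.0 RPKM and was the highest in replicate 1, while in replicate 2 it was the bin from 2 to 3 kb, which takes in the gene end, with 36.4 and 46.0 RPKM in the 2 libraries. In the 2 kb past the gene end the log2 ratio was 5.94 ± 0.17 at Myog (limma, adjusted p = 4.53e-275) and 5.18 ± 0.19 at Myod1 (adjusted p = 6.55e-154). At Myf5 it was 1.79 ± 0.36 (adjusted p = 5.97e-06) and at Myf6 1.83 ± 0.37 (adjusted p = 1.2e-05). All 4 were called, where 31.2% of genes were. The window past Myf6 overlaps those from 7 to 6 kb and from 6 to 4 kb upstream of Myf5, given further on, so these values share reads. The run of Myf5 spanned 3 bins around its start and that of Myf6 1 bin.

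**Figure D2:**
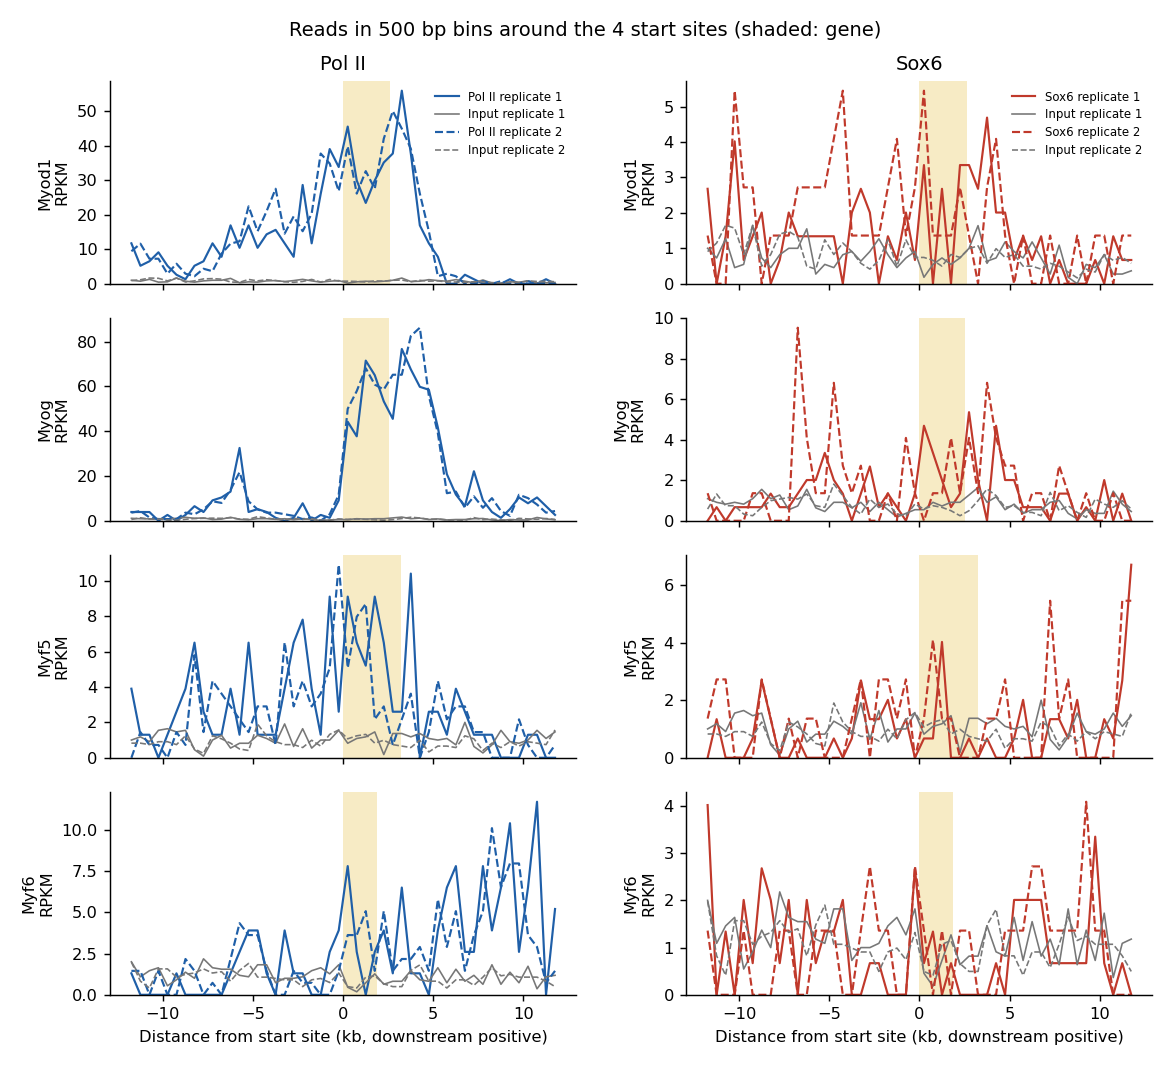
RPKM in 500 bp bins from 12 kb before to 12 kb past each start site, for Pol II (left) and Sox6 (right) with input in grey (solid replicate 1, dashed replicate 2), each panel with its own vertical scale and the gene shaded. Pol II rises over and beyond Myod1 and Myog in both replicates, with a separate rise upstream of Myog that reaches 32.5 and 21.7, while Sox6 bins rest on 0 to 8 reads at Myog.

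Upstream of Myog, Pol II bins of 500 bp were between 0.0 and 7.80 RPKM from 4 to 0.5 kb before the start, and Pol II rose again 6 to 5.5 kb upstream. That 500 bp bin held 25 and 30 Pol II reads against 7 and 9 input reads, or 32.5 and 21.7 RPKM against 0.637 and 0.742. This bin was singled out after its values were seen. The 2 kb window from 6 to 4 kb upstream of Myog, laid on every gene, gave 11.4 and 9.77 RPKM of Pol II against 0.728 and 1.11 of input, a log2 ratio of 3.55 ± 0.26 (limma, adjusted p = 3.87e-39). In this window all 4 genes were called, where 13% of genes were, with lower ratios at Myf5 (1.35 ± 0.36, adjusted p = 0.00147) and Myf6 (1.16 ± 0.32, adjusted p = 0.00178, but 0.0684 without input replicate 2).

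Transcription of Myod1 is known to depend on a distal regulatory region about 6 to 4 kb upstream and on a core enhancer about 20 kb upstream. These distances are rounded, and the window from 24 to 18 kb upstream was made broader than the core enhancer. The window from 6 to 4 kb upstream held 13.0 and 17.7 RPKM of Pol II against 0.523 and 0.907 of input. Its log2 ratio was 4.45 ± 0.26 (limma, adjusted p = 2.62e-64), rank 95 of the 21447 such windows, of which 13% were called higher. The window from 24 to 18 kb upstream gave 7.37 and 6.21 RPKM against 0.827 and 1.06, a log2 ratio of 2.86 ± 0.18 (adjusted p = 5.95e-56), rank 368 of 22277, of which 20% were called. Within it the 1 kb bins with most Pol II were the outermost, 24 to 23 kb upstream, in replicate 2 (19 and 51 Pol II reads in the 2 libraries against 21 and 17 input reads) and the next, 23 to 22 kb upstream, in replicate 1 (32 and 26 reads against 23 and 35). Nearer 20 kb the bins were lower. From 21 to 20 kb upstream Pol II gave 1.95 and 1.81 RPKM against 0.592 and 0.948 of input. From 20 to 19 kb it gave 2.60 and 1.81 RPKM against 0.774 and 1.28. Of the 30 bins of 1 kb upstream of Myod1, 17 held at least 4 times their input in both replicates by the same measure, against 7 of 30 at Myog, 3 at Myf5 and 0 at Myf6. With no reads added these were 16, 6, 2 and 0, and against the input of the other number 18, 8, 1 and 0. Over all 120 bins, 60 kb to either side of the start, the counts were 28 at Myod1, 61 at Myog, 6 at Myf5 and 5 at Myf6. Such bins were not counted for all genes, so these counts have no share to stand beside. The spans also take in other genes with Pol II. That of Myog holds Ppfia4 (log2 ratio 3.39 over its body) and the start of Adora1, 54.6 kb upstream (4.05 over its whole body). The spans of Myf5 and Myf6 overlap, and the highest bin of Myf6 lay 9 to 10 kb past its start, in Myf5. The bins cannot be given to the factors alone. Of the neighbors, named for their position, Kcnc1, a potassium channel gene 18.6 kb past Myod1, had a log2 ratio of 0.13 ± 0.82 at its start (limma, adjusted p = 0.927). Otog, 65.0 kb upstream, gave -0.18 ± 0.79 at its start (adjusted p = 0.892) and 1.45 over its body (adjusted p = 1.32e-06).

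Myf5 is controlled in the embryo by enhancers spread over the Myf6 and Myf5 locus. Among them are an early epaxial enhancer about 7 to 6 kb and a limb enhancer about 58 to 56 kb upstream, by rounded distances. In the window from 7 to 6 kb upstream of Myf5, which includes the last bases of Myf6, Pol II gave 2.60 and 3.26 RPKM against 0.910 and 0.948 of input, from 4 and 9 reads. The log2 ratio was 1.74 ± 0.51 (limma, adjusted p = 0.00422), where 10.6% of such windows were called higher. That call was lost without input replicate 1 (adjusted p = 0.118) and without input replicate 2 (adjusted p = 0.0963). In the window from 58 to 56 kb upstream, Pol II gave 0.325 and 1.09 RPKM against 1.80 and 1.34, a log2 ratio of -1.05 ± 0.45 (adjusted p = 0.0764) that did not pass, where 14.2% of windows were called higher. It was 0.36 when libraries were scaled to the median of 10 kb bins, and without Pol II replicate 2 it was -1.68 and passed as lower (adjusted p = 0.000297).

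**Figure D3:**
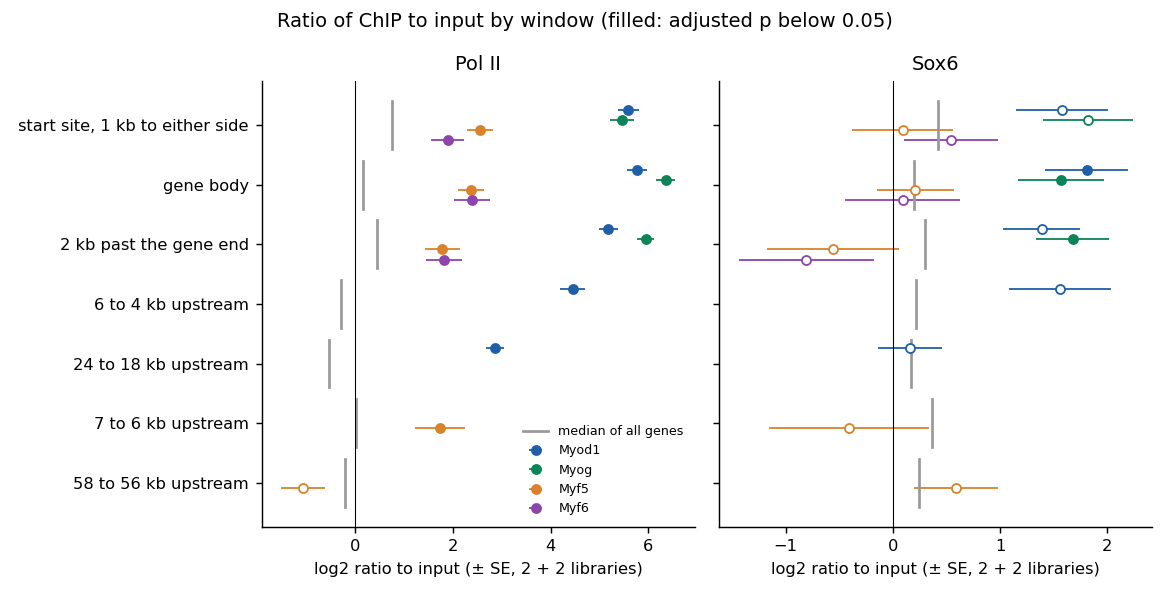
Log2 ratio of Pol II (left) and Sox6 (right) to input by window, with the limma SE (2 + 2 libraries, variance drawn toward the trend over all windows), one color per gene, filled where the adjusted p was below 0.05, and a grey bar at the median of all genes for that window. Pol II ratios of Myod1 and Myog lie between 5.18 and 6.35 in the upper 3 windows, where those of Myf5 and Myf6 lie between 1.79 and 2.56; Sox6 ratios are 1.82 or lower.

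Sox6 reads were few at the 4 genes. They passed the test against input over the bodies of Myod1 and Myog, in the 2 kb past the end of Myog and 6 to 4 kb upstream of Myog, and each of these calls was lost without input replicate 1 or 2. Over Myod1 the Sox6 libraries held 14 and 9 reads (1.79 and 2.34 RPKM) against 31 and 43 input reads (0.539 and 0.677 RPKM). The log2 ratio was 1.81 ± 0.39 (limma, adjusted p = 0.0303), a 3.50-fold difference. Over Myog they held 18 and 6 reads (2.37 and 1.61 RPKM) against 46 and 35 (0.823 and 0.567 RPKM), a log2 ratio of 1.57 ± 0.40 (adjusted p = 0.0483). Myf5, with 9 and 6 Sox6 reads, had a ratio of 0.21 ± 0.36 (adjusted p = 0.739), and Myf6, with 3 and 2 reads, 0.09 ± 0.54 (adjusted p = 0.936). So 2 of 4 bodies were called, where 5.35% of genes were (1125 higher and 342 lower, or 3038 and 94 when scaled to the median of 10 kb bins). The Sox6 calls at Myod1 and Myog did not hold without input replicate 1 (adjusted p = 0.414 and 0.344) or without input replicate 2 (adjusted p = 0.105 and 0.359).

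At the start sites 0 of 4 genes passed for Sox6, where 0.342% of all genes did, with log2 ratios of 1.82 ± 0.42 at Myog (limma, adjusted p = 0.0643), 1.58 ± 0.43 at Myod1 (adjusted p = 0.129), 0.54 ± 0.44 at Myf6 (adjusted p = 0.613) and 0.09 ± 0.47 at Myf5 (adjusted p = 0.958). With the replicate number as a block, both Myog and Myod1 passed at the start (limma, adjusted p = 0.0106 and 0.0289), where 1.5% of all genes did. Over the 13 settings run Myog was called in 4 and Myod1 in 5. The share of all genes called differed widely between these settings, so these counts cannot be read alone. With all libraries kept it ran from 0.0365% (2 reads added) to 3.33% (no filter), and it was higher still without either Sox6 replicate. The start of Myog held 14 and 5 Sox6 reads against 26 and 29 of input, and that of Myod1 9 and 8 against 26 and 41. In the 2 kb past the gene end 1 of 4 passed, Myog with 1.68 ± 0.34 (adjusted p = 0.00908), where 1.08% of genes did; it was not called without input replicate 1 (adjusted p = 0.999), without input replicate 2 (adjusted p = 0.996) or with 2 reads added to each count (adjusted p = 0.0524). Past the Myod1 end Sox6 gave 1.39 ± 0.36 (limma, adjusted p = 0.0651), which passed with the replicate block. Past the ends of Myf5 and Myf6 it gave -0.56 ± 0.62 and -0.81 ± 0.63. From 6 to 4 kb upstream of Myog, where Pol II was also above input, Sox6 held 13 and 9 reads (2.18 and 3.06 RPKM) against 32 and 54 of input (0.728 and 1.11 RPKM). The log2 ratio was 1.57 ± 0.38 (limma, adjusted p = 0.0388), where 0.632% of such windows were called. It did not pass without input replicate 1 (adjusted p = 0.999), without input replicate 2 (0.893), with 2 reads added (0.0524) or when scaled to the median of 10 kb bins (0.0692). In the upstream windows of Myod1, Sox6 gave 1.56 ± 0.48 at 6 to 4 kb (adjusted p = 0.137, or 0.0467 with the replicate block) and 0.16 ± 0.30 at 24 to 18 kb (adjusted p = 0.874), where 0.632% and 1.01% of windows were called. From 6 to 4 kb upstream of Myf5 and Myf6 it gave -1.5 (adjusted p = 0.281) and -0.15 (adjusted p = 0.919). In the enhancer windows of Myf5 it gave -0.41 ± 0.75 at 7 to 6 kb (adjusted p = 0.873) and 0.59 ± 0.39 at 58 to 56 kb (adjusted p = 0.557), where 0.314% and 0.56% were. For scale, the 1066 Sox6 peaks common to both replicates had a median log2 ratio of 3.52 in windows of 450 bp. Those peaks were called on these same reads and their windows are narrower, so this value is a description and not a like measure.

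Among the genes with the most Pol II reads per kb, the Sox6 ratio was in general higher than elsewhere. Over the bodies of the 100 genes with the highest Pol II level, where Myog ranked 9 and Myod1 14, the median Sox6 log2 ratio was 0.92 (quartiles 0.59 and 1.31) and 38 were called, and over the other 20909 genes the median was 0.20 and 1087 were called. Of these 100 genes, 7 had a higher Sox6 ratio than Myod1 and 13 a higher one than Myog. At start sites the medians were 1.16 and 0.42, with 10 of the 100 genes called and 65 of the other 21846. Actb gave a Sox6 log2 ratio of 1.14 ± 0.54 in its body (limma, adjusted p = 0.205). These medians carry no test. The part of this general rise in the values of Myod1 and Myog was not tested.

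No Sox6 peak common to both replicates lay within 50 kb of any of the 4 genes, where 7.11% of all genes had one. The nearest were 129 kb from Myog, 223 kb from Myod1, in an intron of Sergef, and 436 and 444 kb from Myf6 and Myf5, and none came within 100 kb either. Peaks called in 1 replicate were closer. There were 4 of them within 50 kb, beside 3 of the 4 genes (Myog, Myf5 and Myf6). Of all genes, 18.2% had a peak of either replicate list within 50 kb, counting those found in both replicates. The share for peaks of 1 replicate only was not computed. Myf5 and Myf6 shared a single peak, and the nearest to Myod1 in either replicate was the common one. Their deposited intervals are shown, plus strand, because they are the only called Sox6 sites near these genes, with capitals as before.
Replicate 1 peak past Myf5, chr10:106911412-106911671: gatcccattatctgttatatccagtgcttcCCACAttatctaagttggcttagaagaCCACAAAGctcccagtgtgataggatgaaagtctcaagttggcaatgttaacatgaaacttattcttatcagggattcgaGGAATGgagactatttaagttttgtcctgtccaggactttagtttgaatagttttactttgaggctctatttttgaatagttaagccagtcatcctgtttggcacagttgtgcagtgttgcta
Replicate 1 peak in Ppfia4, chr1:136204192-136204251: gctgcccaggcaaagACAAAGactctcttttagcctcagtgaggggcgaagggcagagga
Replicate 1 peak beyond Ppfia4, chr1:136235792-136236031: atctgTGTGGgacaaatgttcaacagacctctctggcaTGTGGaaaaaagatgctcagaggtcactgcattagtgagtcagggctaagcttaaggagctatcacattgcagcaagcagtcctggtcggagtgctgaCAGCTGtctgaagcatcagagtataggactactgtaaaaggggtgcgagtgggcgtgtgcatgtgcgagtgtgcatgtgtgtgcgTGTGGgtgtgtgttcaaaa
Replicate 2 peak upstream of Myog, chr1:136179992-136180051: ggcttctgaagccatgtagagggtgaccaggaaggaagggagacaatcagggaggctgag

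The peak past Myf5 is intergenic, 11.6 kb from the Myf5 start and 20.2 kb from the Myf6 start, with Myf5 between it and Myf6. Its 450 bp window held 6 and 6 Sox6 reads (2.01 and 4.09 RPM, reads per 1e6 reads of the library) against 13 and 13 input reads (0.592 and 0.536 RPM), and 0 and 1 Pol II reads. It was called in replicate 1, and in replicate 2, which did not serve to call it, Sox6 was 7.62 times input (exact two-sided binomial test on reads, adjusted p = 0.00118 over 2888 peaks), with the input of the same number as background here and for the other peaks. Its sequence held a Sox match at positions 60 to 65, as did 54.2% of replicate 1 peaks cut to this length. A Runx match overlapped it at positions 58 to 62 (76.3% of peaks held Runx), and a Tead match lay at positions 138 to 143 (29.6% of peaks).

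The peak in Ppfia4 lies in an intron of that gene, 17.6 kb past the Myog start. It held 11 and 5 Sox6 reads (3.68 and 3.40 RPM) against 10 and 12 input reads (0.455 and 0.495 RPM), with 9 and 11 Pol II reads. In replicate 2 Sox6 was 6.88 times input (exact two-sided binomial test, adjusted p = 0.00424). Its 60 bases held a Sox match at positions 16 to 21, as did 19.4% of peaks at this length. The interval itself, without the 450 bp window, held no 5′ end of a Sox6 read of replicate 2.

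The other two peaks near Myog did not pass in the replicate that had not called them. The peak beyond Ppfia4, 49.3 kb past the Myog start, held 11 Sox6 reads in replicate 1 and 2 in replicate 2, which was 2.54 times input (exact two-sided binomial test, adjusted p = 0.248). Its sequence held Runx matches and an E-box, as did 73.7% and 66.9% of replicate 1 peaks cut to this length. It held no Sox match, which 52.2% of them did. The peak 6.56 kb upstream of Myog held 6 Sox6 reads in replicate 2 and 3 in replicate 1, 2.01 times input (exact two-sided binomial test, adjusted p = 0.248), and none of the motifs. It lies within 1 kb of the upstream rise in Pol II, and its window held 6 and 17 Pol II reads against 11 and 15 input reads. So 2 of 3 replicate 1 peaks and 0 of 1 replicate 2 peaks passed, where 67% and 84.4% of the whole lists did, and 51.6% and 64.4% of the peaks outside the common ones. That test treats each read as an independent draw, so its p-values reflect counting noise alone.

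The genes most like each factor were sought over 8 log2 ratios to input (Sox6 and Pol II, 2 replicates, start and body) in 20384 genes. For Myog they were Myh3, the embryonic myosin heavy chain gene, at a Euclidean distance of 1.13, Mybph, the gene of myosin-binding protein H, at 1.42, and Myod1 at 1.52, where the median gene was at 11.59. For Myod1 they were Mybph at 1.31, the ferritin light chain gene Ftl1 at 1.45 and Tlcd2 at 1.48, and Myog came at rank 5. Mybph lies 88.8 kb upstream of Myog and had a log2 Pol II ratio of 5.92 at its start and 6.31 over its body. Myf5 was nearest to Ube2b, Pank4 and Zkscan3, at 0.75 to 0.77, with Myf6 at rank 243. Myf6 was nearest to 0610040B10Rik, Npff and Ogt, at 0.70 to 0.77, with Myf5 at rank 272. These distances carry no test. The 8 ratios share the 2 inputs, each library being set against the input of its number.

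Around the 4 factors, Pol II was above input at the start of every known target tested, of 10 of 12 cofactors, 8 of 13 dimer partners and inhibitors and 4 of 10 upstream activators. The 22 targets were all higher than input, with a median log2 ratio of 4.04, against 40.8% of genes called and a median of 0.76 over all genes. The list was chosen with earlier results of these data known. It shares Myh3, Acta1, Actc1, Ckm, Mylpf and Tnni2 with the myotube markers, so the counts of these lists are not separate results. Actc1, the cardiac actin gene that fetal skeletal muscle also uses, was the highest, with 126 and 278 Pol II reads against 25 and 46 of input and a log2 ratio of 5.93 ± 0.21 (limma, adjusted p = 5.79e-167). Itga7, an integrin subunit, was the lowest with 2.29 ± 0.29 (adjusted p = 1.8e-14), and Cdh15 (M-cadherin) and Dok7, an activator of the MuSK receptor, were nearest the median with 4.08 and 4.0. Myod1 and Myog lay in the upper range of the targets, and Myf6 fell below all of them.

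Of the 10 upstream activators 4 were higher than input at the start, where 40.8% of all genes were, with a list median of 1.0 against 0.76 over all genes. Among them were Lbx1, a homeobox gene of migrating limb muscle precursors, with 3.26 ± 0.54 (limma, adjusted p = 1.12e-08), and Pax7, a paired-box gene of muscle precursors, with 2.07 ± 0.49 (adjusted p = 9.28e-05), named because it passed. Pax3, the paired-box gene that acts upstream of Myf5 and Myod1, gave 1.27 ± 0.72 (adjusted p = 0.160) on 3 and 2 Pol II reads, Met 0.72 ± 0.44 and Eya2, the lowest, -0.32 ± 0.57. The count fell to 2 without input replicate 1, where the share of all genes was 33.4%. It rose to 7 when scaled to the median of 10 kb bins (61.5% of genes) and to 6 with 2 reads added to each count (61.3%), without Pol II replicate 2 (50.8%) or within 500 bp of the start (47.1%). Over gene bodies 4 of 10 were higher, where 39% of all genes were, Pax7 and Lbx1 among them, and 5 lower, where 5119 of 21011 genes were, including Pax3 with -0.67 (adjusted p = 0.0118); scaled to the median of 10 kb bins, 8 were higher and 0 lower, where 65.2% and 1.35% of genes were.

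**Figure D4:**
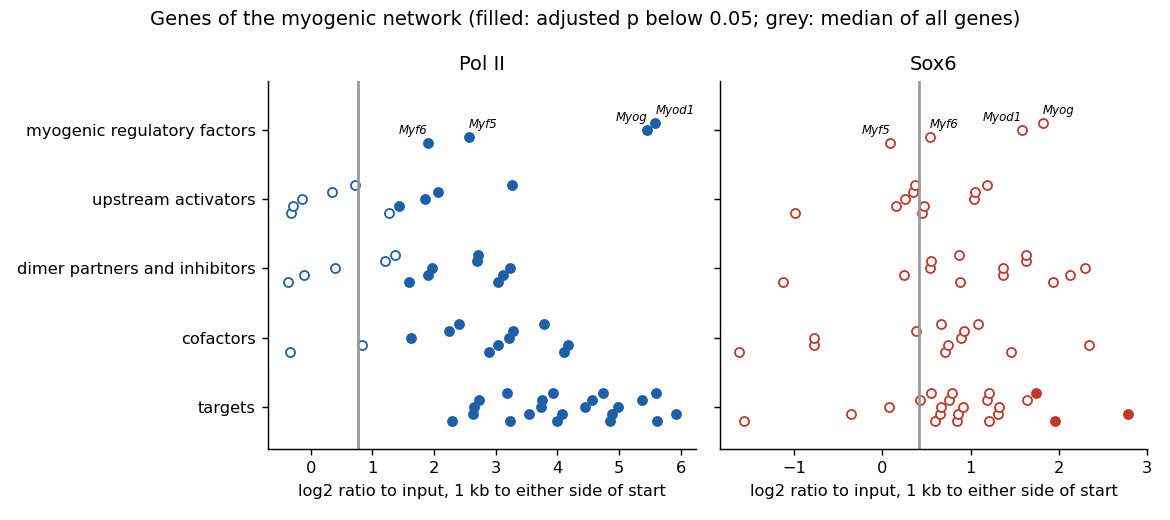
Log2 ratio of Pol II (left) and Sox6 (right) to input within 1 kb of the start, a point per gene, for the 4 factors and for lists of their upstream activators (10), dimer partners and inhibitors (13), cofactors (12) and targets (22); filled points have an adjusted p below 0.05, the grey line is the median of all genes, and vertical spread within a row only separates points. The 22 targets and 4 factors are all filled for Pol II, and 3 targets are filled for Sox6.

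Among 13 dimer partners and inhibitors, 8 were higher at the start (median 1.91), where 40.8% of all genes were and their median was 0.76. Scaled to the median of 10 kb bins, 11 were, where 61.5% of genes were. Over bodies 7 were higher and 1 lower, where 39% and 24.4% of genes were. Id1, an inhibitor that binds E proteins without binding DNA, was the highest with 3.24 ± 0.35 (limma, adjusted p = 3.98e-19), Tcf3, which encodes the E proteins E12 and E47, gave 1.97 ± 0.35 (adjusted p = 6.98e-08) and Id2 1.91 ± 0.42 (adjusted p = 1.75e-05), while Twist1, an inhibitor of MyoD, held 0 Pol II reads in both replicates against 5 and 9 input reads, a ratio of -0.37 ± 0.80 (adjusted p = 0.765) that did not differ detectably from input at this depth. Among 12 cofactors 10 were higher at the start (median 2.97). The count was 11 under the same scaling and 8 within 500 bp of the start (47.1% of genes). Over bodies 9 cofactors were higher and 0 lower. Smarcd3, a chromatin remodeling subunit that works with MyoD, was the highest with 4.17 ± 0.30 (adjusted p = 1.12e-42), Ep300 and Carm1, which modify histones, gave 3.04 and 2.89, and Mef2b, the lowest, -0.34 ± 0.60 (adjusted p = 0.713).

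For Sox6 at the start, 0 of 10 activators, 0 of 13 partners and inhibitors, 0 of 12 cofactors and 3 of 22 targets were higher, where 0.342% of genes were. The 3 were the acetylcholine receptor subunit genes Chrng (2.78 ± 0.36, limma, adjusted p = 0.000652) and Chrna1 (1.95 ± 0.34, adjusted p = 0.0149), and the receptor kinase gene Musk (1.74 ± 0.35, adjusted p = 0.0328). Other subunit genes on the list, Chrnb1 (-0.35, adjusted p = 0.814) and Chrnd (0.66, adjusted p = 0.564), did not pass, nor did Dok7 (0.91, adjusted p = 0.496). Apart from Dok7, these genes were named after their values were seen. Chrng held 26 and 23 Sox6 reads against 38 and 41 of input, with Pol II at 75 and 170 reads. The count of 3 was 0 without input replicate 1, without input replicate 2, with 2 reads added to each count and within 2 kb of the start, 1 (Chrng) when scaled to the median of 10 kb bins, 5 within 500 bp of the start (2.22% of genes), and 15 and 8 without Sox6 replicates 1 and 2. The counts of 0 rose to 2 of 10 activators, 10 of 13 partners and inhibitors and 6 of 12 cofactors without Sox6 replicate 1, where 39.5% of all genes were then called, and to 2, 2 and 5 without Sox6 replicate 2, where 18.6% were. The median Sox6 log2 ratio at the start was 1.37 for partners and inhibitors, 0.85 for targets, 0.73 for cofactors and 0.41 for activators. Over all genes it was 0.42. Over bodies Sox6 was higher at 2 of 10 activators, 2 of 13 partners and inhibitors, 2 of 12 cofactors and 7 of 22 targets. Of all genes, 5.35% were. Scaled to the median of 10 kb bins these counts were 4, 3, 7 and 15, where 14.5% of genes were called. The part of the general rise with Pol II in these counts was not tested.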

How the data were processed

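Chromatin of fetal myotubes was measured by ChIP-seq in 6 libraries, grouped by the labels into Sox6, Pol II and input with 2 replicates each. The authors aligned the reads with Bowtie 0.12.5 at default parameters to mm9, kept those with 1 place in the genome, and called peaks with SISSRs against input at a fragment length of 450 bp. The deposited files hold read and peak positions. The score column of the deposited files is constant for reads and Sox6 peaks and unnamed for Pol II peaks, and was not used. Repeated positions were kept (2.96 to 7.88% of reads).

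Genes were those whose GENCODE name matched a RefSeq symbol (20480 directly, 2581 by an older symbol) with the longest model. Reads were counted by 5′ end in windows 1 kb to either side of each start, in gene bodies, in flanking windows and in 450 bp around peak centers. Windows with at least 10 reads over the 4 libraries compared were tested with limma 3.58.1 (R 4.3.3, trend) on log2 values of (reads + 0.5) per 1e6 reads, immunoprecipitation against input, with Benjamini-Hochberg adjustment over all windows of the kind. The limma code was also run on counts simulated from the input rates with known folds, a setting without the antibody background of the real libraries. That check of the code does not bear on the calls of the 4 genes. Peaks of 1 replicate were tested in the other against the input of its number with an exact two-sided binomial test. A peak was near a gene when the gap to the gene was at most 50 kb. Sequences and motif matches were read from NCBI Build 37 with pysam 0.24.0; figures used matplotlib 3.10.9.

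The genes, lists and windows were chosen with earlier results of these data known. Named genes were the 4 factors, Actb, the 3 genes nearest each factor, genes between a factor and a Sox6 peak, and from each list the highest, the lowest and the 2 nearest the median of the Pol II ratio at the start; exceptions are stated, and some genes of the lists are not reported here by name. Alternatives were scaling to the median of 10 kb bins, 2 reads added, repeated positions counted once, no filter, reads moved by 75 bp, other windows and distances, the replicate number as a block, and each library left out. Sox6 windows hold few reads, so single ratios are imprecise; intervals cover counting error only.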

Additional observations from a re-analysis of the deposited data

How the results depend on the processing

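Pol II ratios at the starts, bodies and 2 kb past the ends of the 4 genes, in both upstream windows of Myod1 and 6 to 4 kb upstream of Myog, kept their direction and their call under every alternative run. The Sox6 results rest on few reads, and their counts of calls moved with many choices. Scaled to the median of 10 kb bins, the numbers of windows called higher became 13436 (from 8908) for Pol II at starts, 13690 (8184) in bodies and 42931 (19117) in flanking windows, and for Sox6 18 (75), 3038 (1125) and 433 (778). With 2 reads added they became 13405 for Pol II starts and 36354 for flanking windows, and 8, 2511 and 192 for Sox6. With no filter on low counts Sox6 gave 768, 2305 and 6072. For Sox6 starts, windows of 500 bp to either side gave 419 and of 2 kb 9. Leaving out 1 library gave 0 to 8634 Sox6 starts, 181 to 7626 bodies and 43 to 30041 flanking windows, the low ends without input replicate 1 and the high ends without Sox6 replicate 1, and 12621 to 30710 Pol II flanking windows, the low end without input replicate 1 and the high end without Pol II replicate 2; a lone library is then assumed to vary like the other group. The replicate number as a block gave 329 Sox6 starts and 2929 bodies, and brought Myod1 and Myog past 0.05 at the start (adjusted p = 0.0289 and 0.0106) and Myod1 6 to 4 kb upstream (0.0467) and 2 kb past its end (0.0406); it changed no other call of the 4 genes. Same-numbered libraries did not deviate together (correlations of -0.058 to 0.049 across genes), and were not treated as pairs in the limma fits. The peak test, the 4-fold bins and the distances did use the input of the same number; the study's peak calling used the input of each ChIP experiment, and the sources used here do not say which input that was.

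Over deposited peak intervals in place of 450 bp, 902 replicate 1 peaks (from 1936) and 790 replicate 2 peaks (from 1463) passed in the other replicate. The ratio of the Ppfia4 peak and of the peak upstream of Myog fell to 0.0, since these 60 bp hold no 5′ end of a Sox6 read of the other replicate. Reads of fragments that cover so short an interval can begin outside it. This alternative and the count of each position once for peaks were chosen after seeing the data. So were bins with no reads added and the input of the other number, against which 2052 and 1417 peaks passed and the peaks near the 4 genes kept their calls. The mean Pol II level from reads in called peaks was 34.9 RPKM for Myod1 (from 33.4), 0.561 for Myf5 (5.25) and 0.0 for Myf6 (3.58). Of the alternatives run on single genes and peaks, 356 kept direction and call, 14 lost a call, 25 gained one and 21 changed sign. Of the ratios to input that changed sign or fell to 0.0, that of the Ppfia4 peak had passed the test (6.88 times input) and the others had not. The sign changes for Sox6 were Myf5 at the start (-0.69 to 0.87 leaving out 1 library, -0.83 within 500 bp) and in the body (-0.03 to 0.45), Myf6 at the start within 2 kb (-0.28) and in the body (-0.18 to 0.36, -0.12 with repeated positions counted once, -0.52 with the model extended by 2 kb), Myod1 24 to 18 kb upstream (-0.02 to 0.34), Myf5 7 to 6 kb upstream (-0.92 to 0.10, 0.50 with 2 reads added), 58 to 56 kb upstream (-0.13 to 1.32) and past its end (-1.86 to 0.75, 0.10 with 2 reads added), and Myf6 past its end (-1.69 to 0.07) and 6 to 4 kb upstream (0.06 scaled to bins, 0.20 with 2 reads added). For Pol II it was Myf5 58 to 56 kb upstream (0.36 scaled to bins). The cause was not tested.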
